A study of Mus musculus with 8 samples.

Results

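The genes described here encode the proteins of the cytoplasmic ribosome, measured in whole skin of mice on 1-colour expression arrays. Probes were chosen by the RefSeq accession that the array design gives them: an accession had to map to a mouse symbol of the form Rpl or Rps with a number, with Rplp0 to Rplp2, Rpsa and Fau added, and with the Rps6k kinases, Rps4l-like pseudogenes and mitochondrial Mrp genes left out. The rule gave 84 genes of the 20284 named genes on the array and 173 of its 26762 named probes. There were 32 genes of the small (40S) subunit and 52 of the large (60S) subunit. Rps23 had no matching probe and was not analysed here.

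The study addressed gene expression in mouse skin with overexpressed Musashi1 (Msi1), an RNA-binding protein that acts on translation. It held 4 Control and 4 DTG arrays, 1 per sample, of total RNA from whole skin labelled with Cy3. DTG is the labels' own abbreviation and is not spelled out there; the labels used here also give no strain, age, promoter or inducing agent, and they name every sample as male. They do not say whether each skin came from a separate animal, and a p-value therefore covers no more than the spread among the 8 samples, part of which may be technical. Levels are log2 processed intensities minus the array's 75th percentile over probes, and a change is the DTG mean minus the Control mean on that log2 scale. Calls come from limma over 17716 tested genes at a Benjamini-Hochberg adjusted p under 0.05, and the array number alone limits their precision.

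The ribosome is built from ribosomal RNA and a nearly equal number of copies of each ribosomal protein, so that the mRNAs of these proteins are among the most abundant of a cell. The transcripts of most of them start at a C and go on with a run of pyrimidines, the 5′ terminal oligopyrimidine (TOP) motif, through which their translation follows the activity of mTORC1. A few members have a related gene that replaces or accompanies the common form, such as Rpl3l in striated muscle and Rpl10l and Rpl39l in the testis.

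The start regions of 12 members are given here to show where runs of pyrimidines lie near the start. By the rule below a run is marked in some and not in others. This holds among the common forms (the first 7) and among the related genes of a pair (the last 5). Each line covers 30 bases before and 30 bases after a RefSeq start site on assembly GRCm38.p6, and where RefSeq gives a gene several starts, the one with the longest run was taken. Capitals mark a run of 8 or more C or T within 15 bases of the start, on either side. A marked run can lie wholly before the start, as in Rps27l. It is then not part of a transcript from that start, so a marked run need not be a TOP motif. A run that crosses this limit was counted only up to it. In Rps12 such a run has 7 bases inside the limit and goes on beyond it, so it stands without capitals. The windows lie at chr17:33955636-33955695 (minus strand, Rps18), chr3:90213619-90213678 (minus, Rps27), chr7:45718041-45718100 (plus, Rpl18), chr19:6057917-6057976 (plus, Fau), chr4:86857338-86857397 (minus, Rps6), chr17:28328441-28328500 (plus, Rpl10a), chr10:23787180-23787239 (minus, Rps12), chr9:66946056-66946115 (plus, Rps27l), chr3:28805478-28805537 (plus, Rpl22l1), chr17:46782627-46782686 (minus, Rpl7l1), chr16:10170198-10170257 (plus, Rpl39l) and chr17:24727796-24727855 (plus, Rpl3l).
Rps18: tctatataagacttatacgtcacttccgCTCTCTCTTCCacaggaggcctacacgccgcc
Rps27: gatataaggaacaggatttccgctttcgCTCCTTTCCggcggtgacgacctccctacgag
Rpl18: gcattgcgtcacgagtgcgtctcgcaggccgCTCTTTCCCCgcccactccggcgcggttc
Fau: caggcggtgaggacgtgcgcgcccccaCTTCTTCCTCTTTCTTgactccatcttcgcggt
Rps6: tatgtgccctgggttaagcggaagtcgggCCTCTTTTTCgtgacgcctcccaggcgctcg
Rpl10a: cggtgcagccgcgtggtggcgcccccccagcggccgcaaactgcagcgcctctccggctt
Rps12: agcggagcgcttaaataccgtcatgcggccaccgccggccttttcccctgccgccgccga
Rps27l: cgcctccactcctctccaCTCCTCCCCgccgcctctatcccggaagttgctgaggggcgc
Rpl22l1: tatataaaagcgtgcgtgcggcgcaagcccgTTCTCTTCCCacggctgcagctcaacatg
Rpl7l1: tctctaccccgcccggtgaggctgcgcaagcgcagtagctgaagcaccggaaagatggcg
Rpl39l: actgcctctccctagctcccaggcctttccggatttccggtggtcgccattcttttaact
Rpl3l: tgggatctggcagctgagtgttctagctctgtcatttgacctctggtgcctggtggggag

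Of the 84 members, 64 had such a window, among 27025 genes with one. A run of 8 or more pyrimidines within 15 bases of the start, on either side, was found in 28 of the 64 (43.8%), against 13.9% of all genes. This count includes runs that lie before the start and is not a count of TOP motifs. Runs cut at the 15-base limit, as in Rps12, were left out if fewer than 8 bases remained inside it. The letters CTCTTTC on the sense strand in the same 30 bases occurred in 10.9% of the members and 0.488% of all genes, and the letters CTTTCC, which overlap them in part, in 15.6% and 1.67%. Over the whole window of 250 bases before to 50 after the start, CCGGAAG, a core bound by ETS factors, was present on either strand in 40.6% of the members and 9.93% of all genes. The letters AAGATGGC, bound by YY1, occurred on either strand in 10.9% and 3.19%. TATAAA on the sense strand at 40 to 15 bases before the start was found in 1.56% and 2.41%. Among the members with a window that were called lower in DTG, 12 of 25 had the pyrimidine run, and among the others 16 of 39. These motifs were chosen after the sequences had been seen, the windows are descriptions with no test, and the absence of letters from a window draws nothing about a factor.

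All 84 genes passed the filter and were well above background on all 8 arrays, and 80 of them lay in the brightest 10% of the tested genes by probe signal. The median member stood at percentile 98.8. Rpl10l was the dimmest at percentile 19.9, and among the 77 members that are not the related gene of a pair the lowest was Rpl3 at percentile 94.7. The signal of a probe depends on its sequence as well, so these ranks describe probes and not relative abundance of transcripts. No member spot was saturated.

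Several measures of the arrays moved with the groups. Msi1 stood at a mean of -2.80 in Control and 4.01 in DTG, a change of 6.81 (adjusted p = 0.0029), with the flagged spot of DTG 1 dropped. All arrays came from 1 slide, with Control in the first row and DTG in the second, so that the row of the slide and the group cannot be told apart. Spots well above background made up 82.7% ± 2.64 in Control and 69.8% ± 1.23 in DTG (SD, n = 4), and the mean log2 signal of negative controls was 2.85 and 4.46; each did not overlap between groups (exact two-sided permutation p = 0.0286, the smallest that 4 against 4 allows). Spike-in probes, which report RNA added in fixed amounts, lay 0.51 ± 0.27 above the 75th percentile in Control and 0.040 ± 0.058 in DTG (SD, n = 4, log2; exact p = 0.0286). Xist was high and Y-linked Eif2s3y low on Control 2 and 4 and on DTG 1, 3 and 4, which goes against the male label of these 5 samples. Results without them are given below.

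On the 75th percentile scale 83 of the 84 ribosomal protein genes had a lower mean in DTG than in Control, with a median change of -0.32 against -0.15 for all tested genes, but on the spike-in scale 80 of the 84 had a higher mean, with a median of 0.15 against 0.33. The family thus lay -0.17 from the median of all genes on both scales. This likeness follows from the method, since each of these scalings subtracts 1 constant per array. After quantile scaling, which does not, the distance was 0.0030. In the main fit 33 members fell, Rpl7l1 alone rose and 50 did not pass. The same fit called 21.3% of all tested genes lower and 11.2% higher. Changes ran from -0.50 (Rps12) to 0.49 (Rpl7l1), and the middle part of the family was narrow, with quartiles at -0.37 and -0.27. The typical standard error of a member's change was 0.11. That is not the error of a difference between members, and outside the pairs below such differences were not tested. At an unadjusted p under 0.05, 67 of the 84 members were lower and 1 higher, against 5286 and 2560 of all 17716 tested genes. Every DTG array lay below every Control array in 63 members, above in 1, and the groups overlapped in 20; over all genes those shares were 23.1% below and 11.4% above.

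**Figure D1:**
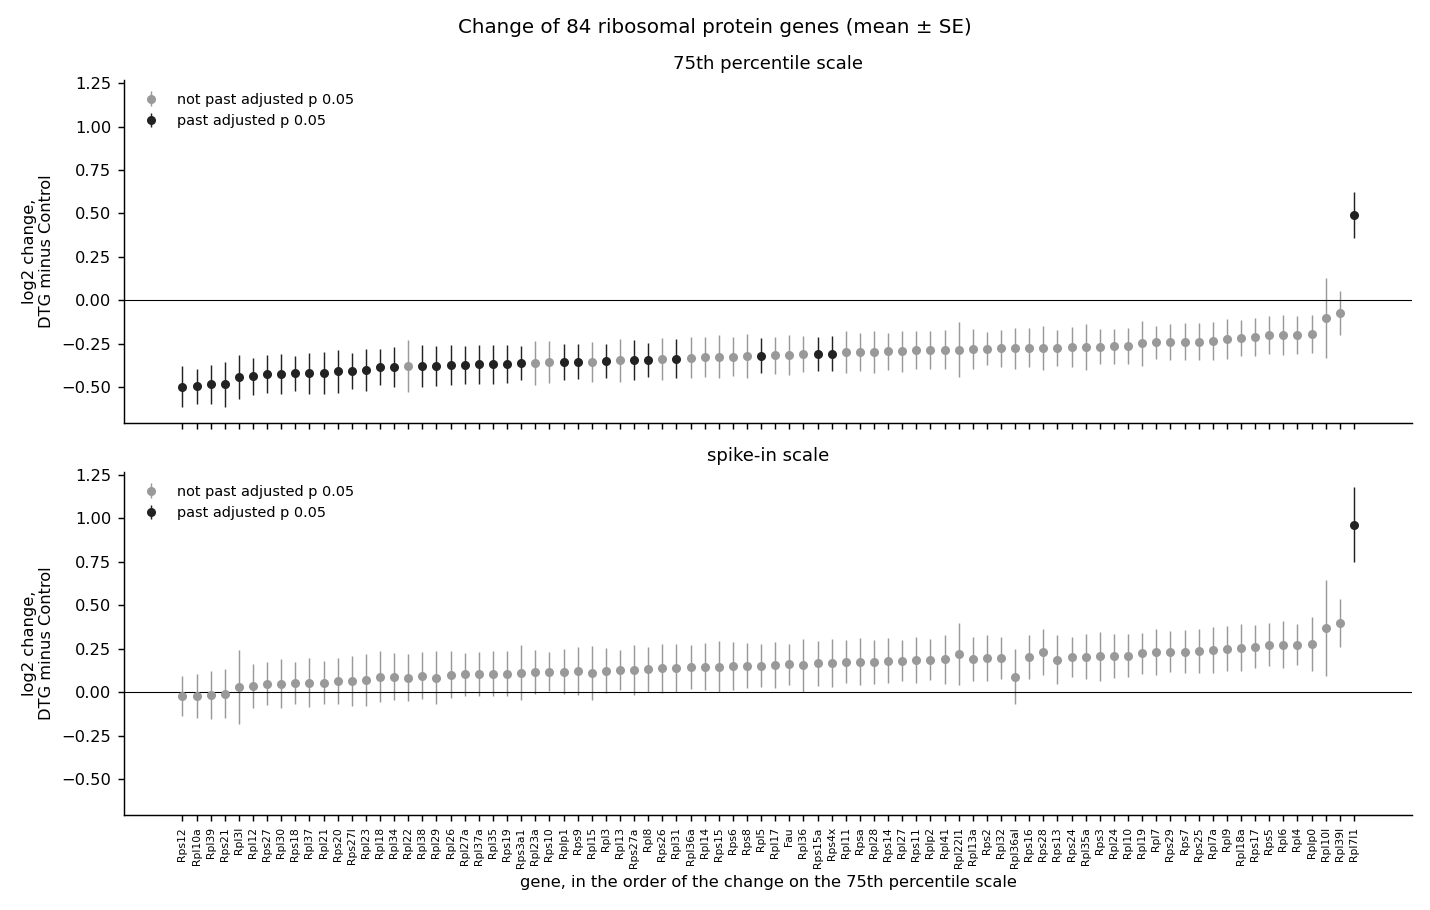
Log2 change, DTG minus Control, with its standard error (limma) for each of the 84 ribosomal protein genes, on the 75th percentile scale (top) and the spike-in scale (bottom), 4 arrays a group and genes in the same order; black points pass the adjusted p. On the upper scale 33 genes are called lower and Rpl7l1 higher; on the lower scale the family moves above 0 and only Rpl7l1 is called.

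Genes of like brightness were set beside the family. The brightest 10% of all tested genes without the members had a median of -0.15, with 226 lower and 69 higher calls of 1691. Mitochondrial ribosomal proteins, which build the separate ribosome of that organelle, had a median of -0.11, with 9 lower and 8 higher of 77. On the spike-in scale the brightest 10% without members stood at a median of 0.33 and the mitochondrial proteins at 0.36, against 0.15 for the cytoplasmic family. After quantile scaling the members had a median of -0.086 and all genes -0.089, while the rest of the brightest 10% had 0.017.

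The small subunit, which binds mRNA and decodes it, gave 12 lower and 0 higher calls among 32 genes on the 75th percentile scale, with a median of -0.31, and 0 calls at a median of 0.16 on the spike-in scale. The shares of all tested genes were 21.3% lower and 11.2% higher on the first scale, and 2.33% and 30.6% on the second. The unadjusted count of the small subunit on the first scale was 27 lower and 0 higher, against 5286 and 2560 of the 17716 tested genes. In 26 genes every DTG array lay below every Control array, as in 23.1% of all genes. Rps12, a small-subunit protein of the beak, stood at 5.0, 4.65, 4.88 and 4.52 on Control arrays 1 to 4 and at 4.32, 4.28, 4.23 and 4.23 on DTG arrays 1 to 4. The groups did not overlap, and the DTG arrays were much closer to each other than the Control arrays were. Its change was -0.50 (SE 0.12, adjusted p = 0.014), or 1.41-fold lower in DTG, and its spike-in scale change was -0.023 (adjusted p = 0.890). Rps18, at the subunit's head, had levels of 3.98, 3.82, 3.93 and 3.63 in Control and 3.49, 3.32, 3.43 and 3.44 in DTG, a change of -0.42 (SE 0.10, adjusted p = 0.015).

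Rps27, a zinc-binding protein, stood at 4.48, 4.14, 4.36 and 4.11 in Control and 3.94, 3.77, 3.85 and 3.85 in DTG. It changed by -0.42 (SE 0.11, adjusted p = 0.018), with no overlap. Rps21 changed by -0.48 (SE 0.13) and Rps3a1 by -0.36 (SE 0.10), each with an adjusted p of 0.023. Rps6, the protein that the S6 kinases phosphorylate downstream of mTORC1, stood at 4.73, 4.36, 4.56 and 4.42 in Control and 4.28, 4.07, 4.12 and 4.30 in DTG. Its groups did not overlap either, but it missed the threshold, with a change of -0.32 (SE 0.11, adjusted p = 0.053). On the spike-in scale Rps18, Rps27, Rps3a1 and Rps6 stood at 0.054, 0.050, 0.11 and 0.15, and none of them passed there.

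Members that are made as fusions with ubiquitin-like proteins were among those near the threshold. Rps27a, which carries ubiquitin itself, stood at 4.94, 4.57, 4.77 and 4.68 in Control and 4.55, 4.21, 4.37 and 4.45 in DTG; the change was -0.35 (SE 0.11, adjusted p = 0.049). Fau, whose product is the ubiquitin-like FUBI joined to eS30, stood at 4.97, 4.63, 4.82 and 4.51 in Control and 4.29 on DTG 2 against 4.46 to 4.47 on the other DTG arrays. Its change of -0.31 did not pass (SE 0.12, adjusted p = 0.070). Both had positive changes on the spike-in scale, 0.13 for Rps27a and 0.16 for Fau.

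The large subunit, which holds the peptidyl transferase centre, gave 21 lower and 1 higher calls among 52 genes on the 75th percentile scale, with a median of -0.32, and 0 lower and 1 higher at a median of 0.15 on the spike-in scale. Of all tested genes 21.3% were called lower and 11.2% higher on the first scale, and 2.33% and 30.6% on the second. Rpl10a, a protein of the L1 stalk, had the smallest p of the family. Its levels were 5.0, 4.76, 4.93 and 4.68 in Control and 4.36, 4.25, 4.34 and 4.44 in DTG. The change was -0.49 (SE 0.10, adjusted p = 0.0075), 1.41-fold lower in DTG, and stayed past the threshold whichever single array was left out (largest adjusted p 0.026), while the spike-in scale gave -0.021 (adjusted p = 0.908). Rpl39, a small protein that lines the exit tunnel, stood at 4.68, 4.48, 4.64 and 4.34 in Control and 4.07, 4.02 and 4.06 on DTG 1, 3 and 4, its spot on DTG 2 being flagged by the scanner software and dropped. It changed by -0.48 (SE 0.11, adjusted p = 0.016).

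Rpl12, at the base of the P stalk, stood at 5.16, 4.91, 5.20 and 4.85 in Control and 4.65, 4.48, 4.63 and 4.61 in DTG, a change of -0.44 (SE 0.11, adjusted p = 0.017). Rpl30 (-0.42), Rpl18 (-0.38) and Rpl3 (-0.35), the last one a protein that reaches the peptidyl transferase centre, passed with adjusted p-values of 0.025, 0.025 and 0.027. The acidic stalk that recruits elongation factors gave unequal calls: the difference was -0.35 for Rplp1 (adjusted p = 0.030), -0.29 for Rplp2 (adjusted p = 0.078) and -0.19 for Rplp0, which anchors them (adjusted p = 0.196). Rplp0 stood at 4.98, 4.72, 4.97 and 4.82 in Control and 4.74, 4.58, 4.54 and 4.85 in DTG, so that DTG 4 lay above Control 2 and 4. Rplp0 is often used as a reference gene, and its change was 0.28 on the spike-in scale and 0.035 after quantile scaling. Whether the 3 stalk genes differ from each other was not tested. Rpl5 and Rpl11, which with the 5S RNA bind the Mdm2 protein and were picked out for that role after their values were seen, stood at -0.32 (adjusted p = 0.041) and -0.30 (adjusted p = 0.089).

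**Figure D2:**
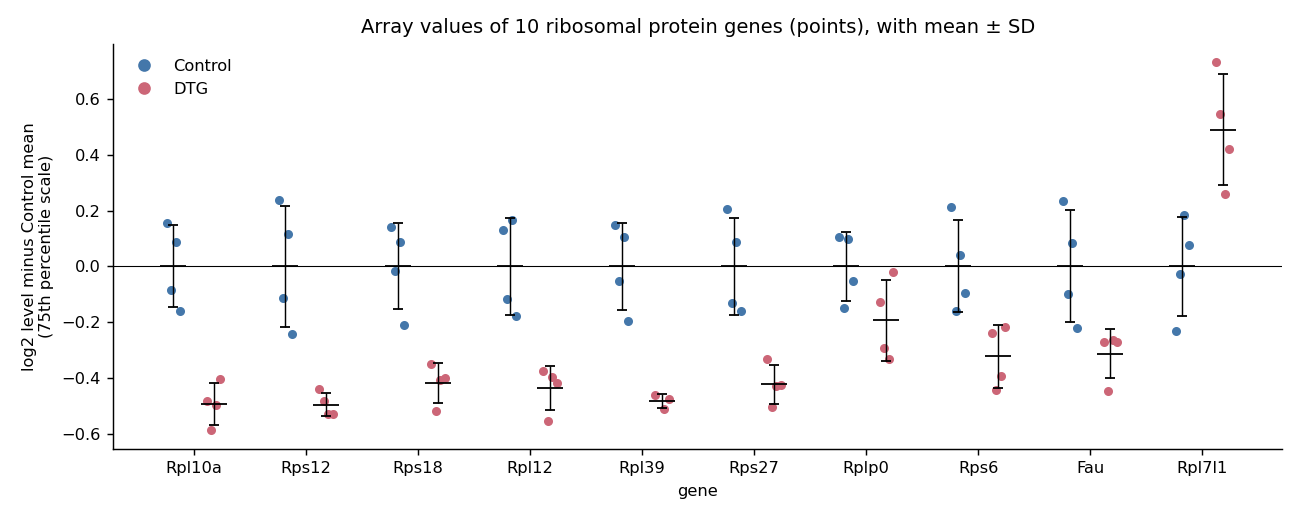
Log2 level minus the Control mean (75th percentile scale) of 10 ribosomal protein genes; points are arrays, bars mean ± SD, 4 arrays a group except Rpl39 with 3 in DTG. Control and DTG points do not overlap in 9 of the genes and overlap in Rplp0; on the spike-in scale Rpl10a, Rps12 and Rpl39 lie at -0.021, -0.023 and -0.014 and the other genes above 0.

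Rpl7l1, the relative of Rpl7, was the only member with a higher mean in DTG on the 75th percentile scale, and the direction was the same under every scaling tried. Its levels were -0.65, -0.44, -0.23 and -0.34 in Control and 0.32, 0.13, -0.15 and 0.0089 in DTG. All DTG arrays lay above all Control arrays, although DTG 3 and Control 3 were close. It rose by 0.49 (SE 0.13, adjusted p = 0.024), or 1.40-fold, and by 0.96 on the spike-in scale (adjusted p = 0.0095). With the slide column as a block the adjusted p was 0.083, and without Control 2, DTG 1 or DTG 2 it was 0.053, 0.055 and 0.060. One probe reports this gene, at percentile 51.2 of probe signal, and 11.2% of all tested genes were called higher in the same fit.

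Pairs of a related gene and its common form were set against each other within each array, which no scaling by a constant can alter. The size of such a difference depends on both probes, and its shift between groups is what was compared. The difference Rpl7l1 minus Rpl7 was -5.53, -5.05, -4.96 and -4.95 on the Control arrays and -4.17, -4.29, -4.56 and -4.56 on the DTG arrays. It shifted by 0.73 (SE 0.17, n = 4 and 4) with no overlap, at an exact two-sided permutation p of 0.0286 and 0.1 after Benjamini-Hochberg adjustment over the 7 pairs. Rpl39l minus Rpl39 was -3.15, -3.06, -3.15 and -3.12 in Control and -2.68, -2.41 and -2.81 on DTG 1, 3 and 4. Its shift was 0.48 (SE 0.12), with the same exact p of 0.0286 and adjusted p of 0.1. Quantile scaling, which is not a constant, gave smaller shifts, 0.49 for Rpl7l1 minus Rpl7 and 0.28 for Rpl39l minus Rpl39. In the second pair Rpl39 was the gene called lower on the 75th percentile scale, and Rpl39l had a difference of -0.074 there (SE 0.13, adjusted p = 0.675) and of 0.40 on the spike-in scale. The design cannot bring any of the 7 pairs under 0.05 unless several pairs reach the smallest p together, and 0 of 7 passed.

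The other 5 pairs had shifts of 0.17 for Rpl22l1 minus Rpl22 (exact p = 0.333, the smallest that its 2 arrays a group allow), 0.16 for Rpl10l minus Rpl10 (exact p = 0.714), 0.015 for Rps27l minus Rps27 (exact p = 0.914), -0.017 for Rpl36al minus Rpl36a (3 against 4 arrays, exact p = 0.714) and -0.092 for Rpl3l minus Rpl3 (exact p = 0.657). Rpl22l1 minus Rpl22 was -0.71 and -0.63 in Control and -0.53 and -0.47 in DTG, without overlap, while the groups of the other 4 pairs overlapped. Rps27l, a gene that p53 can induce, stood at 3.82, 3.83, 3.94 and 3.66 in Control and 3.34, 3.25, 3.48 and 3.55 in DTG. Its change of -0.41 (SE 0.10, adjusted p = 0.018) was close to that of Rps27, -0.42. Rpl22, Rpl36a, Rpl10 and Rpl36al stood at changes of -0.38, -0.33, -0.26 and -0.28 and did not pass; flagged spots were dropped for Rpl22 on DTG 1 and for Rpl36al on Control 1.

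**Figure D3:**
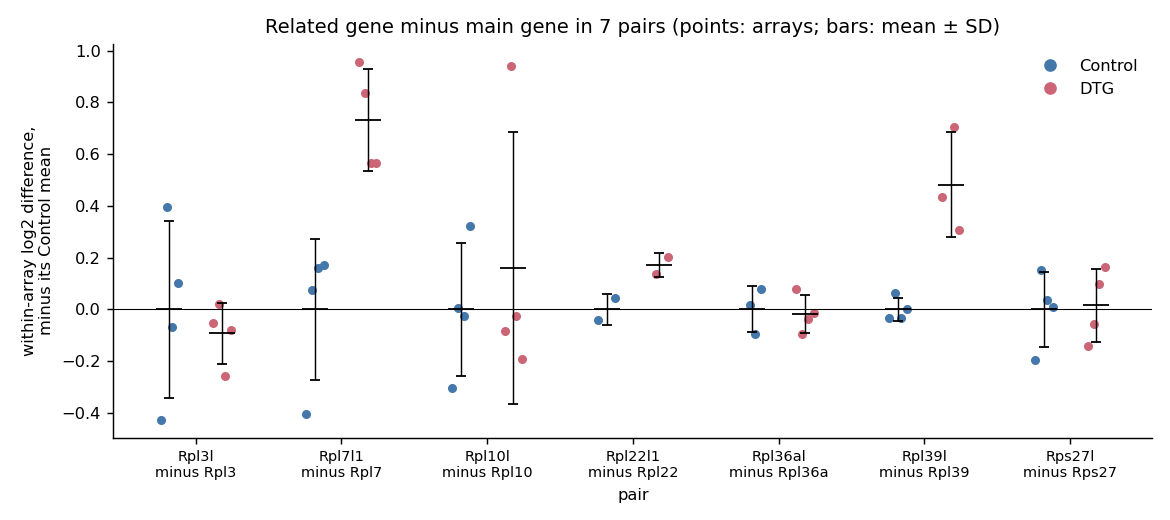
Within-array log2 difference of 7 pairs, related gene minus common form, with the Control mean of the pair set to 0; points are arrays and bars mean ± SD, 4 arrays a group except where a flagged spot was dropped. Rpl7l1 minus Rpl7, Rpl39l minus Rpl39 and, with 2 points a group, Rpl22l1 minus Rpl22 have all DTG points above all Control points; the DTG points of Rpl10l minus Rpl10 are spread by DTG 2.

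Rpl3l, the striated-muscle form, stood at 0.84, 1.36, 1.04 and 1.08 in Control and 0.77, 0.67, 0.45 and 0.67 in DTG. It changed by -0.44 on the 75th percentile scale (SE 0.13, adjusted p = 0.030) and by -0.42 after quantile scaling (adjusted p = 0.040), and its spike-in scale difference was 0.032, which did not pass (adjusted p = 0.917). Skeletal muscle markers were present in these skins. On the 75th percentile scale 3 of 16 were called lower and 0 higher, a share below the 21.3% of all genes called lower, with a median of -0.23 (0.25 on the spike-in scale), and their summed log2 level ran from 8.03 to 8.23 in Control and from 7.80 to 7.88 in DTG. The 3 were Tnni2 (-0.40), Tnnt3 (-0.34) and Tnnc2 (-0.33), of the fast troponin complex. Their part in the change of Rpl3l was not tested.

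Probes of one gene did not always agree. Of the 171 member probes tested, 64 were lower and 5 higher, against 19.8% and 11.6% of all probes. At a mean level of 3 or over, 146 probes had negative changes and 1 a positive one; below 3, 13 were negative and 11 positive. In 11 of the 51 genes with more than 1 tested probe the signs differed, and in 6 of them opposing probes both had an unadjusted p under 0.05. In all 6 the dimmest probe was the one with the positive change. For Rps15a the 2 brighter probes changed by -0.31 and -0.42, while the dim one stood at -3.40, -3.27, -3.31 and -3.08 in Control and -2.55, -2.49, -2.80 and -2.38 in DTG, a change of 0.71 (SE 0.12, adjusted p = 0.0037). For Rpsa, also known as the laminin receptor, the brightest probe had a difference of -0.30 (adjusted p = 0.068) and the dim one of 0.62 (SE 0.11, adjusted p = 0.0050). Rpl27a (-0.37 for its brightest probe against 0.36 for its dimmest), Rpl23 (-0.40 against 0.37), Rpl14 (-0.33 against 0.45) and Rpl15 (-0.35, without DTG 1, against 0.34) showed the same split. The values in the text are those of the brightest probe. Many ribosomal protein genes have processed pseudogenes of nearly the same sequence, and what else each probe binds was not tested.

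**Figure D4:**
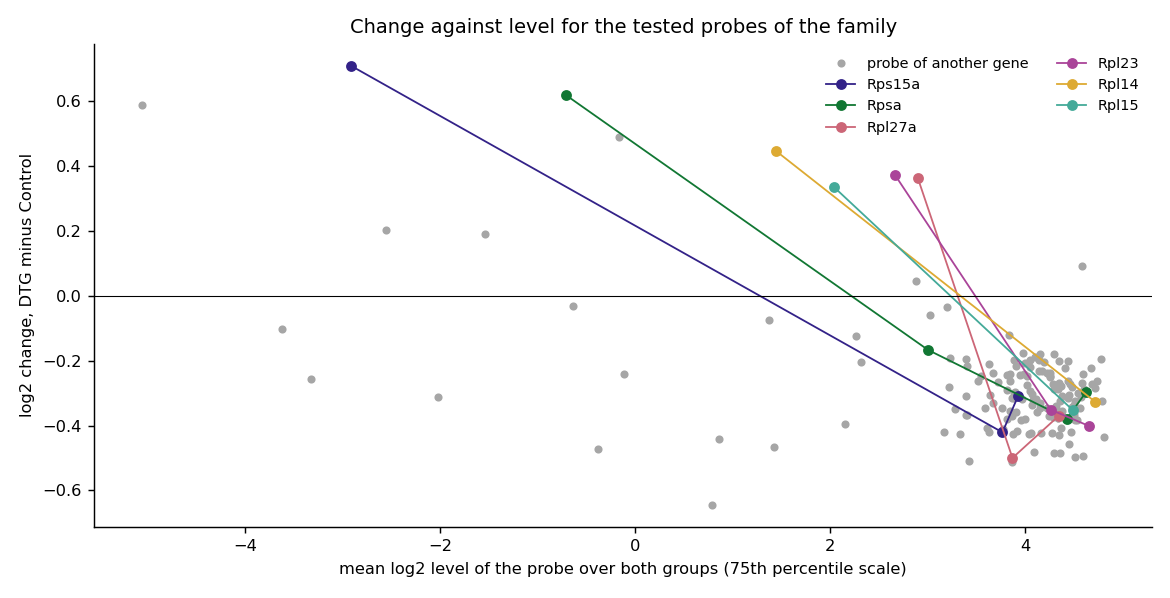
Log2 change of each of the 171 tested probes of the family, DTG minus Control, against its mean log2 level, both on the 75th percentile scale; lines join the probes of the 6 genes whose probes oppose each other. Most bright probes lie between -0.6 and 0, and 11 of the 12 probes above 0 have a level under 3.

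The groups were less uniform than the counts show when single arrays were examined. On the 75th percentile scale the median deviation of the members from their Control mean was 0.20 on Control 1, -0.13 on Control 2, 0.086 on Control 3 and -0.15 on Control 4. It was -0.25, -0.40, -0.35 and -0.26 on DTG 1 to 4. All DTG arrays lay below all Control arrays, and the gap between Control 4 and DTG 1 was smaller than the range of the Control arrays. The 2 high Control arrays were those with low Xist. Without any scaling the members' median log2 signal was 16.34 ± 0.089 in Control and 16.15 ± 0.033 in DTG (SD, n = 4; exact two-sided permutation p = 0.0286), with no overlap.

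**Figure D5:**
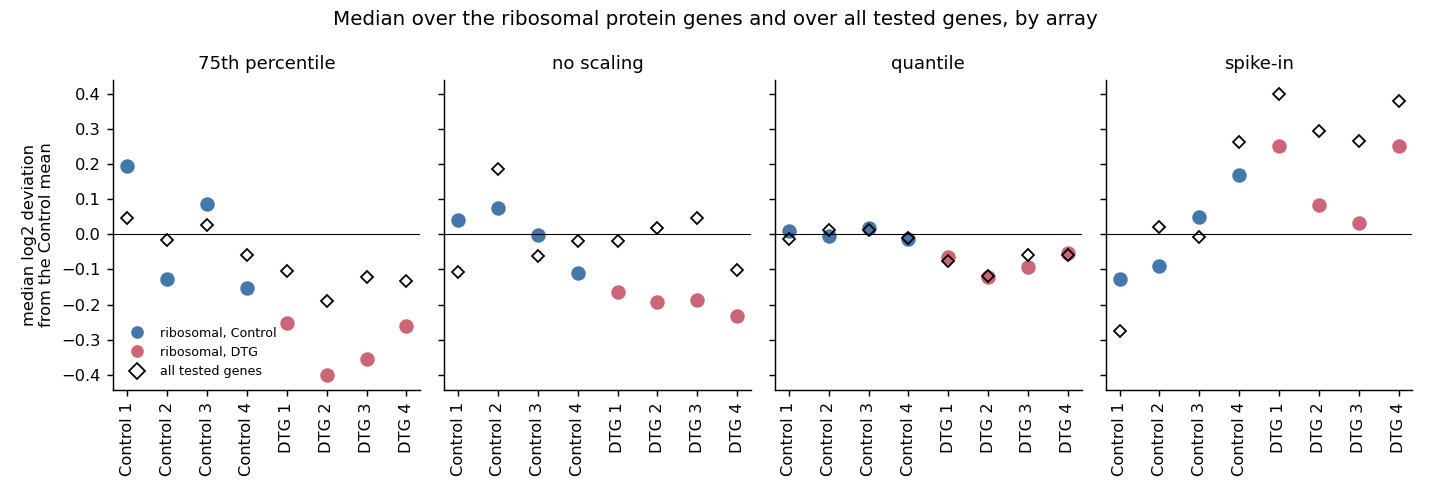
Median log2 deviation from the Control mean over the ribosomal protein genes (circles) and over all tested genes (diamonds) on each of the 8 arrays, under 4 scalings. The circles of DTG lie below those of Control on the 75th percentile scale, without scaling and with quantile scaling; under spike-in scaling they overlap, with DTG 1 and DTG 4 the highest.

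The slide column holds 1 Control and 1 DTG array each. Within columns 1 to 4 the median DTG minus Control difference of the members was -0.45, -0.27, -0.44 and -0.11, beside -0.15, -0.18, -0.13 and -0.086 for all genes. With the column as a block 12 members (14.3%) were called lower and 0 higher, and that fit called 15.8% of all genes lower and 8.71% higher, so the members' share was no greater than the background. Among the arrays with high Xist alone (2 Control, 3 DTG) the members' median was -0.14 and among those with low Xist (2 Control, 1 DTG, where the lone DTG array is taken to vary as much as the rest) it was -0.53, with 0 calls in either. In a fit with Xist class as a covariate 20 members (23.8%) were called lower and 1 higher, near the 21.8% of all genes called lower there (11.7% higher). The interaction of Xist class and group passed in 0 of the 75 members tested by limma, with an unadjusted p under 0.05 in 20 and a smallest adjusted p of 0.680, so the difference between the classes is not shown.

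The number of members called turned on the scale, and the shares in parentheses are those of all tested genes. Quantile scaling gave 7 lower and 1 higher (18.6% and 12.9% of all genes), no scaling 6 lower and 1 higher (9.01% and 12.6%), and the spike-in scale 0 lower and 1 higher (2.33% and 30.6%). Median scaling gave 45 lower and 1 higher (22.9% and 10.3%), and the median of the tested genes 9 lower and 1 higher (16.7% and 12%). After quantile scaling the 7 were Rpl10a, Rps12, Rps18, Rpl39, Rps27, Rpl3 and Rpl3l, with changes from -0.42 to -0.19. The count also moved with single arrays: without Control 1 or Control 3 the main count of 33 became 11 and 5, and without DTG 1, 2, 3 or 4 it became 21, 5, 7 and 14. The members' shares without Control 1, Control 3, DTG 2 and DTG 3 were 13.3%, 5.95%, 5.95% and 8.33%, below the 18.2%, 14.1%, 14.7% and 18.4% of all genes called lower in the same fits. Without DTG 1 and DTG 4 they were 25% and 16.7%, against 17.5% and 16.2% of all genes. Over the main fit and its 26 alternatives Rpl10a and Rps12 were called 23 times, Rps18 22 times, and Rpl12, Rpl39, Rps27 and Rpl7l1 21 times each. Among these alternatives, leaving out saturated spots repeats the main fit, since no spot outside the controls was saturated. When each array was scaled on the median of the ribosomal protein genes themselves, a choice made after seeing the data, 0 members were lower and only Rpl7l1 passed (4.89% of all genes lower and 24.3% higher), at 0.80 (SE 0.16, adjusted p = 0.0079).

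Genes that work with the ribosome were taken from lists. Of 17 other TOP mRNAs measured, 1 was lower and 0 higher, with a median of -0.19 (0.28 on the spike-in scale). Over all tested genes 21.3% were called lower and 11.2% higher, so the list's share of lower calls was below the background. The gene called lower was Rack1, a scaffold protein bound to the 40S subunit, at 4.49, 4.40 and 4.28 on Control 1, 3 and 4 and 3.99, 3.95, 3.97 and 4.11 in DTG (change -0.38, SE 0.10, adjusted p = 0.023). The elongation factors Eef1a1 and Eef2, named here after their values were seen, stood at -0.24 and -0.19 and did not pass.

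Ribosome biogenesis factors, which process ribosomal RNA and assemble the subunits, gave 1 lower and 5 higher calls of 54, with a median of 0.032 on the 75th percentile scale and 30 higher calls on the spike-in scale. Over all tested genes 11.2% were called higher on the first scale and 30.6% on the second. Nip7, a 60S assembly factor, stood at 1.47, 1.11, 1.40 and 1.37 in Control and 2.17, 2.14, 1.90 and 2.11 in DTG, a change of 0.74 (SE 0.11, adjusted p = 0.0021). Wdr12, of the PeBoW complex of 60S maturation, changed by 0.60 and Nob1, the endonuclease that finishes 18S rRNA, by 0.66, with adjusted p-values of 0.0037 and 0.021. Polr1d, a subunit shared by RNA polymerases I and III, changed by -0.81 (SE 0.13, adjusted p = 0.0026) and had a difference of -0.34 on the spike-in scale, where it did not pass (adjusted p = 0.086). Of 18 regulators of mTORC1 and TOP mRNAs, 0 were lower and 2 higher, with a median of -0.022 (0.45 on the spike-in scale): Sesn2, a leucine sensor that restrains mTORC1, changed by 0.71 (SE 0.13, adjusted p = 0.0057) and Mlst8, a subunit of both mTOR complexes, by 0.51 (SE 0.086, adjusted p = 0.0036).

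Some cell type markers also passed the test, in a fit that called 21.3% of all genes lower at a median of -0.15. On the 75th percentile scale the basal keratinocyte list had 4 lower calls of 8 (median -0.30; Col17a1 -0.61, Itgb4 -0.81, Krt5 -0.59, Krt15 -0.38), with summed log2 levels of 6.78 to 7.16 in Control and 6.34 to 6.71 in DTG. The lowest DTG sum, that of DTG 2, lacks the flagged Krt15 spot and is too low for that reason. Of the fibroblast list 3 of 8 were lower and 0 higher (median -0.36; Dpt -0.37, Lum -0.31, Dcn -0.34), with sums of 7.09 to 7.56 and 6.87 to 7.12. The adipocyte list had 5 of 8 lower and 0 higher (median -0.38), with sums of 5.90 to 6.38 and 5.92 to 6.01. The lowest Control sum, that of Control 4, lacks the flagged Adipoq spot. The overlap of the adipocyte sums therefore cannot be read as an overlap of the groups. The calls of this list were led by Plin1 (-1.35), Retn (-0.59), Adipoq (-0.46) and Fabp4 (-0.32). Immune and endothelial markers had shares near that of all genes: immune markers gave 2 lower of 10 (median -0.12; sums 6.21 to 6.50 and 6.14 to 6.39) and endothelial markers 2 lower and 1 higher of 8 (median 0.084; sums 3.21 to 3.45 and 2.79 to 3.19). On the spike-in scale the medians of these 5 lists were 0.17, 0.12, 0.14, 0.36 and 0.56. On the 75th percentile scale the T cell genes Cd3g (-0.81) and Cd3e (-0.74) and the endothelial gene Cldn5 (-0.72) fell by more than any member. Endothelial Tie1 rose by 1.09, more than any member, from a dim probe at percentile 29.3, and endothelial Vwf was called lower at -0.45. Col17a1, Itgb4, Krt5, Plin1 and Retn also changed by more than any member. In whole skin fewer cells of a type and less RNA per cell cannot be told apart, and the part of cell makeup in the ribosomal protein values was not tested.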

How the data were processed

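Total RNA of 8 whole skins was hybridised to 1-colour arrays, 1 array per sample. The deposited intensity values are scanner output of Agilent Feature Extraction (11.5.1.1 per the file headers, 10.7 per the submitters' processing notes), background corrected by that software and not scaled between arrays. Spot flags were read from the same deposited files. From these, log2 processed signals were averaged over spots not flagged as outliers (0.744% of values were dropped) and the 75th percentile of each array was subtracted. Probes well above background on 3 of 4 arrays of a group were kept, the brightest per gene was used, and limma 3.58.1 in R 4.3.3 (lmFit, eBayes) was fitted over 17716 genes with no covariate. Pairs were compared by exact permutation over arrays. The authors' table of linear intensity values holds 43861 rows; 99.6% of its values lie within a relative 0.001 of the scanner values, so it is unscaled, and its column medians run from 851 to 1140.

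The members and lists were chosen with earlier results of these data known. Genes were named by a rule: the 12 smallest p-values each way among called members, the 3 largest changes each way, all pairs, 7 members of known role, genes with opposing probes and the 4 leading calls of each other list. Replicate numbers follow deposit order and pair nothing. The alternatives were other scalings (quantile, median, none, 8 spike-in probes, and 2 added later on the tested genes and on the members), normexp background with offset 50 on median signals, the deposited table, other filters, slide column, Xist class, an intensity trend and each array left out. On data simulated for DTG against Control over 17716 genes with 200 changed, 77% of changes of size 1 and 2% of those of size 0.4 were recovered, with 2 false calls. The main fit called 3776 genes lower and 1976 higher, and the adjusted cutoff is less strict when more genes change. These recovery rates therefore do not carry over to the main fit.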

Additional observations from a re-analysis of the deposited data

Results flagged for a closer look

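Among 76 sets of 4 arrays examined for a single outlying array, 4 had one past Dixon's critical ratio, which chance gives in about 1 of 20 sets. On DTG 2, Rplp2 stood at 4.10, below 4.21 to 4.23 on the other DTG arrays, and Fau at 4.29, below 4.46 to 4.47. DTG 2 also had a difference Rpl10l minus Rpl10 of -7.20, above -8.34 to -8.17 on the others. The difference Rpl7l1 minus Rpl7 was -5.53 on Control 1, below -5.05 to -4.95 on the other Control arrays. DTG 2 is the DTG array with low Xist, and its part in these values was not tested.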

How the results depend on the processing

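The family's direction depended on the scale. Its median of -0.32 became -0.086 with quantile scaling, 0.15 on the spike-in scale, -0.0065 on the members' own median, and -0.14 and -0.53 on the arrays of high and of low Xist; relative to all genes it was -0.17 in the main fit, 0.0030 after quantile scaling, and -0.040 and -0.33 in the Xist classes. The count of 33 lower members became 57 with an intensity trend (21.8% of all genes lower), 20 with the Xist covariate (23.8% of members, 21.8% of all genes), 12 with the slide column block (14.3% and 15.8%), 9 on the median of the tested genes, 7 with quantile scaling, 6 without scaling, and 0 on the spike-in scale, on the members' own median and in each Xist class. The count of 1 higher member became 0 with the block and in each Xist class. Leaving out 1 array gave 5 to 35 lower and 0 to 1 higher members, medians of -0.36 to -0.26 and relative medians of -0.22 to -0.12. Scaling also moved the split of calls over all genes: 65.6% of them were lower in the main fit, 41.6% without scaling, 16.8% on the members' own median and 7.07% on the spike-in scale. The slide column block is not a pairing: no paired analysis was possible because the labels give the samples no shared replicate numbers.

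Of the values of named genes and pairs under the alternatives, 769 kept their direction and their side of the threshold, 173 kept their direction and lost it, and 28 gained it. The direction reversed in 63. Leaving out saturated spots repeats the main fit, since no spot outside the controls was saturated, so its values all count among the 769. Single genes that turned on the spike-in scale were Rpl3l (0.032), Rpl12 (0.037), Rps27 (0.050), Rps18 (0.054), Rpl30 (0.051), Rps27l (0.065), Rpl23 (0.072), Rpl22 (0.085), Rpl18 (0.090), Rpl36al (0.090), Rpl27a (0.10), Rpl15 (0.11), Rps3a1 (0.11), Rplp1 (0.12), Rpl3 (0.12), Rps27a (0.13), Rpl36a (0.14), Rpl14 (0.15), Rps6 (0.15), Fau (0.16), Rps15a (0.17), Rpsa (0.18), Rplp2 (0.19), Rpl10 (0.21), Rpl22l1 (0.22), Rpl7 (0.23), Rplp0 (0.28), Rpl10l (0.37) and Rpl39l (0.40). On the members' own median Rps15a (0.0058), Rpsa (0.016), Rplp2 (0.027), Rpl22l1 (0.035), Rpl10 (0.051), Rpl7 (0.072), Rplp0 (0.12), Rpl10l (0.21) and Rpl39l (0.24) turned. Quantile scaling turned Rpl7 (0.0011), Rplp0 (0.035) and the pairs of Rpl10l (-0.11) and Rps27l (-0.053). Without scaling Rpl10l (0.021) and Rpl39l (0.049) turned, normexp turned Rpl10l (0.040), and the mean of probes turned Rpl14 (0.060), Rpl10l (0.24) and the Rps27l pair (-0.017). High Xist arrays turned Rpl39l (0.092) and the pairs of Rpl10l (-0.26) and Rps27l (-0.039), and low Xist arrays Rpl10l (0.68) and the Rpl3l pair (0.27). The deposited table and outlier spots kept turned the Rpl36al pair (0.025 each). Leaving out 1 array moved Rpl10l between -0.35 and 0.042 and the pairs of Rpl10l between -0.10 and 0.28, Rpl36al between -0.066 and 0.023, Rpl3l between -0.23 and 0.039 and Rps27l between -0.050 and 0.068. The cause of these turns was not tested. Signal over background is no limit for the members, but Rpl10l is dim.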
